A study of Mus musculus with 8 samples.

Results

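Gene-body methylation was read in 6834 windows of 1000 bp (tiles) that lie deep inside mouse protein-coding genes, of 44516 tiles tested in all. A tile was kept if it was autosomal, held 3 to 30 covered cytosine positions, lay whole inside an mm10 RefSeq protein-coding gene and was 5 kb or more from any gene end. It also had to lie 3 or more tiles from any tile with 60 or more covered positions and to hold at least 20 reads in every library. The reads of a tile are summed over its positions, so a sequencing read that covers several positions counts once at each. A tile therefore rests on fewer sequencing reads than its count where reads cover several positions. None of these conditions is a methylation level. Before the read minimum 64361 tiles met the rule. The 6834 tiles sat in 3498 genes, of which 2035 held 1 tile and 29 held 10 or more, and their median distance to the nearest gene end was 17.9 kb. Members just inside the limit, 5 to 6 kb from a gene end, averaged 78.9% (446 tiles), and tiles just outside it, 4 to 5 kb away, averaged 77.7% (512 tiles). Members with 26 to 30 positions averaged 78.5% (415 tiles) and tiles with 31 to 35 averaged 71.6% (293 tiles). Members exactly 3 tiles from a dense tile averaged 68.1% (28 tiles) and tiles exactly 2 away 69.5% (29 tiles).

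The cells were I1DN leukaemic progenitors (I1DN as in the labels), labelled cKit+/Cd11b-, from mice that had been transplanted with I1DN leukaemic cells. The mice received AG120, which is ivosidenib and inhibits mutant IDH1, or AZA, which is azacitidine and depletes DNA methyltransferases, or both drugs (the combination), or Vehicle, and all groups were treated for 5 days. Each group had 2 libraries of reduced representation bisulfite sequencing (RRBS), in which bisulfite converts unmethylated cytosines in CpG-rich restriction fragments. According to its design text, the series looks at what the 2 drugs together do to DNA methylation. The labels do not say whether the 2 libraries of a group came from separate mice, so p-values measure the spread between these libraries, which may be technical. The label of the cells cannot be checked against marker expression in a methylation table.

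In mammals most CpGs inside genes carry methyl groups, placed by DNMT3A and DNMT3B and copied at replication by DNMT1. Active promoters, enhancers and CpG islands are the main exceptions, and a long gene can hold such places far from its ends, for example an alternative transcription start. Mutant IDH1 makes 2-hydroxyglutarate, which inhibits the TET enzymes that oxidise 5-methylcytosine, whereas azacitidine is incorporated into nucleic acids and traps the methyltransferases. The methylated body of a gene is thus a place where either drug could in principle alter the level.

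Gene-body methylation was lowest at RefSeq transcription starts that lie inside genes, among the distance classes compared, and such starts are a feature the choice of tiles did not use. The 250 bases before 6 such starts are given below, from RefSeq on GRCm38.p6, whose coordinates are those of mm10, 5′ to 3′ along the start's own strand. They are the 3 lowest and the 3 highest windows by the level of their tile, among 11 that held at least 3 covered CpGs and at least 20 reads in every library. Capitals mark CpGs with a covered position, and CCGG is the letter string that the RRBS enzyme MspI cuts.
Filip1 (chr9:79977883-79978132, minus strand): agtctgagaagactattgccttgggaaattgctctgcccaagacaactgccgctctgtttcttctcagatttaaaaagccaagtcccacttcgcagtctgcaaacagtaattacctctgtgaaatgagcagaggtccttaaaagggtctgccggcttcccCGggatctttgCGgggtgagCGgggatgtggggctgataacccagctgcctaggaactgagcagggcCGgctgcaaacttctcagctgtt
Sh3tc1 (chr5:35729277-35729526, minus strand): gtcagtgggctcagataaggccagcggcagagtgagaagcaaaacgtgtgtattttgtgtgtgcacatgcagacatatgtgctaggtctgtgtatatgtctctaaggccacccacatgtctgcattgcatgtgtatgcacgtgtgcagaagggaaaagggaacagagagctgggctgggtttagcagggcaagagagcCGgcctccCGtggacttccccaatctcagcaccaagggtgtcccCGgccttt
Dab2ip (chr2:35621731-35621980, plus strand): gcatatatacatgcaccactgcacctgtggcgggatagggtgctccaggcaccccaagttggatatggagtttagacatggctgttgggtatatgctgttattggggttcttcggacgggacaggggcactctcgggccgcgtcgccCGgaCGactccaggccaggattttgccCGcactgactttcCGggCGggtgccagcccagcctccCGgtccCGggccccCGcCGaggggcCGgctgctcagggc
Acot11 (chr4:106799832-106800081, minus strand): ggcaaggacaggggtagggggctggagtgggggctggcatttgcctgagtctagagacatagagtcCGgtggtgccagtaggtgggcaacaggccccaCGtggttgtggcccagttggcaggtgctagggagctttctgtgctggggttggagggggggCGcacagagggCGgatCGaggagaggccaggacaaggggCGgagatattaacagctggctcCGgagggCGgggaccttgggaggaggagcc
Gm34347 in Crtac1 (chr19:42298129-42298378, plus strand): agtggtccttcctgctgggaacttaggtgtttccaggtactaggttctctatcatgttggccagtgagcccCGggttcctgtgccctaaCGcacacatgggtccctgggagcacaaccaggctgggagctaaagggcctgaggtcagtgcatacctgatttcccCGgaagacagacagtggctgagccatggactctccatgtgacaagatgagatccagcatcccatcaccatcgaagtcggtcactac
H6pd (chr4:150003237-150003486, minus strand): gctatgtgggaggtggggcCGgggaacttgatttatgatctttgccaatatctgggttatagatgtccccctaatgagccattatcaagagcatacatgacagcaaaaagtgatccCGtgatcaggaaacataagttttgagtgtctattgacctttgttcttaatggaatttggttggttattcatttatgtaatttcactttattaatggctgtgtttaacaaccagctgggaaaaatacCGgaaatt

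The Dab2ip window held 17 CpGs, of which 10 were covered, and the Filip1 and Sh3tc1 windows held 7 and 6 with 4 and 3 covered. Of the windows in the 3 highest tiles, Acot11 held 8 CpGs with 8 covered, the Gm34347 start 5 with 3 covered, and H6pd 3 with 3 covered. On either strand CCGG stood in 20 of the 35 windows in deeply read start tiles (57.1%) and in 47.1% of all 32851 RefSeq windows of this length. The median window of RefSeq held 6 CpGs.

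The tile at the internal start of Filip1, which encodes a filamin-interacting protein (chr9:79977001-79978000), had 0.922 and 0.229% with AG120, 0 and 0% with AZA, 0.0925 and 0% with the combination, and 4.82 and 0% in Vehicle. All 8 libraries were under 5%. The tile at the start in Sh3tc1 (chr5:35729001-35730000) had 0 and 0% with AG120, 13.5 and 0.329% with AZA, 0 and 0% with the combination, and 0.508 and 0% in Vehicle, low in every library with AZA replicate 1 the highest. Dab2ip encodes a RAS GTPase-activating scaffold. Its tile (chr2:35621001-35622000), 62.3 kb from the nearest gene end, had 0.535 and 0% with AG120, 8.72 and 4.48% with AZA, 0 and 5.01% with the combination, and 7.04 and 2.60% in Vehicle. These 3 tiles were under 15% in every library.

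The 3 tiles at the other end varied widely between libraries. Acot11, an acyl-CoA thioesterase gene (chr4:106799001-106800000), had 6.34 and 98.4% with AG120, 24.6 and 10.9% with AZA, 99.6 and 100% with the combination, and 51.6 and 100% in Vehicle. The 2 AG120 libraries differed by most of the scale, while both combination libraries were near 100%. The tile at the Gm34347 start inside Crtac1 (chr19:42298001-42299000) had 99.9 and 99.6% with AG120, 56.2 and 95.99% with AZA, 99.6 and 50.1% with the combination, and 62.04 and 68.8% in Vehicle. H6pd, which encodes the hexose-6-phosphate dehydrogenase of the endoplasmic reticulum (chr4:150003001-150004000), had 95.8 and 46.7% with AG120, 98.8 and 85.5% with AZA, 90.2 and 95.2% with the combination, and 48.2 and 84.9% in Vehicle. In H6pd low values stood in AG120 replicate 2 and Vehicle replicate 1, so that the groups overlapped.

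Levels climbed with distance from the nearest RefSeq start in all 8 libraries. Starts were known for 6584 of the 6834 tiles, and the other 250 lie on chromosome 18, where start positions were not used here. The 64 tiles that hold a start averaged 39.4 and 39.4% with AG120, 38.4 and 33.9% with AZA, 43.5 and 44.1% with the combination, and 41.8 and 44.8% in Vehicle. Of these starts 62 belonged to the host gene. Over the 8 libraries the mean was 40.6% in the 64 tiles with a start, 56.9% in 70 tiles under 1 kb away and 72.3% in 50 tiles at 1 to 2 kb. It was 75.1% at 2 to 5 kb (119 tiles), 78.7% at 5 to 10 kb (729 tiles) and 80.4% beyond 10 kb (5552 tiles). The gap between tiles with a start and tiles beyond 10 kb was many times the SD over libraries of either mean, 3.61 and 1.41 points. This SD does not measure the spread between tiles, as all libraries read the same sets of tiles. Tiles with a start held 17.5 covered positions on average and tiles beyond 10 kb 12.2, and the part of this in the gap was not tested. In the tiles with a start AZA averaged 36.2% ± 3.15 against 43.3% ± 2.13 in Vehicle (SD, n = 2 each), with AZA replicate 2 the lowest library, and the combination averaged 43.8% ± 0.390.

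**Figure D1:**
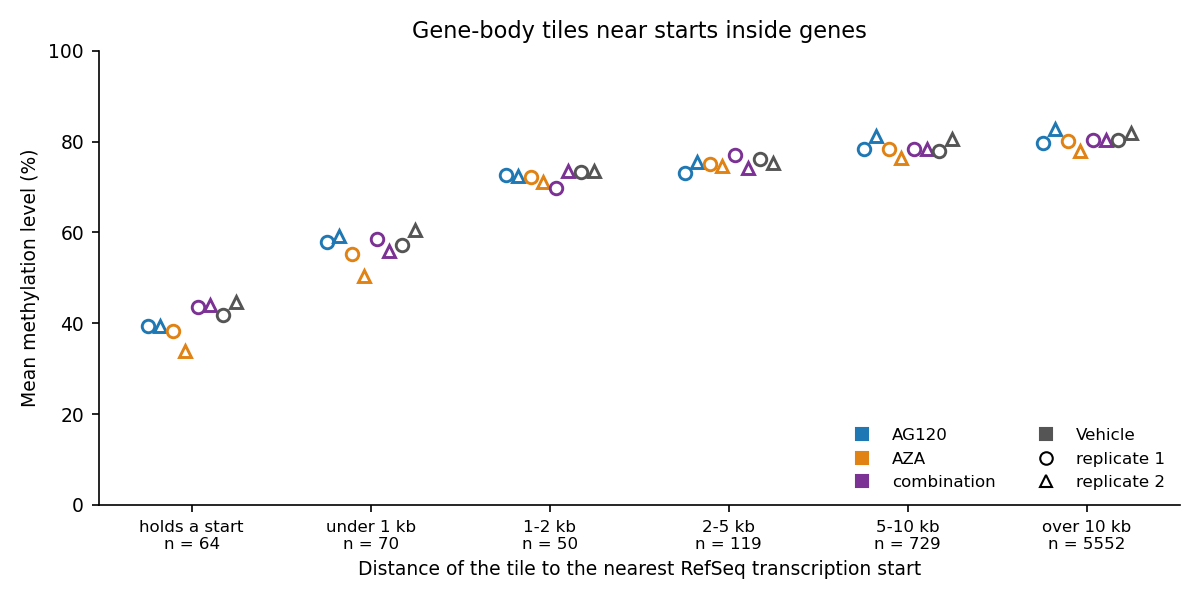
Mean methylation level (%) of gene-body tiles by their distance to the nearest RefSeq transcription start, one point per library and bin, with the number of tiles under each bin. All 8 libraries lie between 33.9 and 44.8% in the 64 tiles that hold a start and between 78.04 and 82.8% in the 5552 tiles beyond 10 kb.

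Of the 64 tiles with a start, 27 had a mean level under 20% and 15 a mean over 80%. Conversely, of 418 gene-body tiles under 20%, 50 (11.96%) had a start inside them or within 1 kb, against 2.04% of all gene-body tiles with known starts. Most low tiles therefore lay away from any RefSeq start in the table. Among the tiles that hold a start, Mlxipl, which encodes the carbohydrate-sensing transcription factor ChREBP (chr5:135106001-135107000), had no methylated read in any of the 8 libraries, from 125 to 1065 reads each. A count of 0 allows up to 0.243% with AG120, 0.466% with AZA, 0.396% with the combination and 0.252% in Vehicle, as 3 reads of a group's total and for counting error only. Here and below such limits take the counts at different positions as independent. Counts from 1 sequencing read are not, so the true limits can be wider. Hnf4a, the gene of a liver and gut nuclear receptor (chr2:163547001-163548000), also holds a start in its tile, was chosen after its values were seen, and had 85.2 and 93.9% with AG120, 100 and 100% with AZA, 99.6 and 99.7% with the combination, and 100 and 91.4% in Vehicle. Its 8 libraries were all above 85%. The other 4 of the 5 lowest tiles with 100 or more reads in every library lay in Ccdc40 (chr11:119237001-119238000), Erg, Cuedc1 (chr11:88188001-88189000) and the overlapping genes Oprm1 and Ipcef1 (chr10:6980001-6981000), where the tile holds a start of Ipcef1. The highest value of these 4 tiles in any library was 0.0646%.

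Over all gene-body tiles, methylation was mostly high. Averaged over the 8 libraries, 4754 tiles (69.6%) were above 80%, 1650 (24.1%) between 20 and 80% and 430 (6.29%) under 20%, with a median of 89.3%. Among 5944 intergenic tiles chosen with the same limits but touching no gene, 63.5, 30.3 and 6.19% fell in these classes, and among all 44516 tiles 38.1, 21.8 and 40.1%. In every library the gene-body mean stood above the intergenic mean, by 2.08 and 2.42 points with AG120, 2.36 and 1.54 with AZA, 2.66 and 2.21 with the combination, and 2.35 and 2.25 in Vehicle. Of the 6834 tiles, 1650 were above 80% in each of the 8 libraries, 180 under 20% in each, 66 at exactly 100% in each and 11 at exactly 0 in each.

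Levels differed by a few points along the gene. With the host gene cut in 3 equal parts along its own strand, for tiles whose strand was known, the mean over libraries was 77.9% in the first part (1354 tiles), 79.0% in the middle (2068 tiles) and 81.6% in the last (1814 tiles). The last part was the highest in each of the 8 libraries. By distance from the nearest gene end the mean was 79.8% at 5 to 10 kb, 79.0% at 10 to 20 kb, 79.5% at 20 to 50 kb, 79.8% at 50 to 100 kb and 78.4% beyond 100 kb. By covered positions it was 78.4% in tiles with 3 to 5, 80.6% with 6 to 10, 79.2% with 11 to 20 and 78.6% with 21 to 30. Adjacent tiles of a gene differed by a median of 8.43 points in their mean level (272 pairs), tiles 2 to 9 apart by 10.4 points (921 pairs), and tiles 10 or more apart by 12.8 points (7651 pairs). Pairs of tiles from 1 gene share their libraries, so these differences are given without a test.

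Each library read its own part of most tiles. A tile held a median of 11 positions, counted over all libraries, but a single library read on average 6.54 and 7.40 of them with AG120, 7.05 and 7.28 with AZA, 6.43 and 6.42 with the combination, and 7.33 and 7.20 in Vehicle. In 3503 tiles (51.3%) no position was read in all 8 libraries, and 1610 (23.6%) had 3 or more such positions. Gene-body tiles took 3790477 to 4802677 reads per library, with a median of 392 to 506 reads per tile. They took 4.22 and 4.31% of a library's calls with AG120, 3.69 and 3.66% with AZA, 4.73 and 4.65% with the combination, and 3.17 and 3.17% in Vehicle, out of 90373925 to 130796962 calls. The groups did not overlap in this share, which is a share of reads and not a methylation level.

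Single positions were mostly all or none. Of the positions in gene-body tiles with 20 or more reads in a library, 84.9 and 84.0% stood at exactly 0 or 100% with AG120, 83.5 and 78.5% with AZA, 85.8 and 86.2% with the combination, and 81.8 and 83.2% in Vehicle, at median depths of 100 to 135 reads. This held for 66.9 to 77.6% of positions in tiles whose mean level lay between 20 and 80%. Between 40.1 and 56.5% of tiles with at least 3 such positions in a library had every one of them at 0 or 100%, and 18.9 to 28.5% of these mixed both values. In each library 78.7 to 80.6% of positions had exactly the same read count as another position of the tile. RRBS reads without molecular identifiers are not independent molecules. How many molecules lie behind a tile's reads was not tested, and whether the reads were deduplicated is not given in the sources used here.

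Tiles with steady intermediate levels held such positions too. Skap1, the gene of a T-cell adaptor protein (chr11:96556001-96557000), had 75 and 75% with AG120, 75.02 and 75% with AZA, 74.7 and 75.1% with the combination, and 82.2 and 74.5% in Vehicle. Vehicle replicate 1 was the highest and the others lay close to 75%, although no position was read in all 8 libraries. One of its 16 cytosines was at 0 in every library that read it and others were at 100% in every library that read them. Of its 56 library and position values with 20 or more reads, 50 stood at exactly 0 or 100%. Tspan9, a tetraspanin gene (chr6:127988001-127989000), had 76.2 and 66.7% with AG120, 75.7 and 66.8% with AZA, 66.5 and 66.5% with the combination, and 74.3 and 67.7% in Vehicle. In it 1 cytosine was at 0 in all 7 libraries that read it. The cytosine on the other strand of the same CpG was at 100% in all 4 libraries that read that strand, and the cause was not tested. Another cytosine was at 0 to 7.81%, and the rest were at 98.5 to 100%. Further tiles with a narrow range lay in Scn8a, a sodium channel gene (chr15:101016001-101017000), and Sulf2, a heparan sulfatase gene (chr2:166083001-166084000), with means of 58.6 and 26.8%.

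The distance between libraries was similar within and across groups. The mean absolute difference of a tile between the 2 libraries of a group was 14.7 points in AG120, 16.5 in AZA, 15.8 in the combination and 13.4 in Vehicle, a mean of 15.1, against a mean of 15.3 (range 12.9 to 17.1) between libraries of different groups. The median SD of a tile over the 8 libraries was 12.8 points, where binomial sampling of the reads alone gives 1.77. The range over libraries exceeded 50 points in 1989 tiles (29.1%) and 90 points in 541. It was wider in tiles with fewer reads. From the least to the most deeply read 4th of the tiles the mean difference within a group was 18.2, 15.8, 14.3 and 12.2 points.

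**Figure D2:**
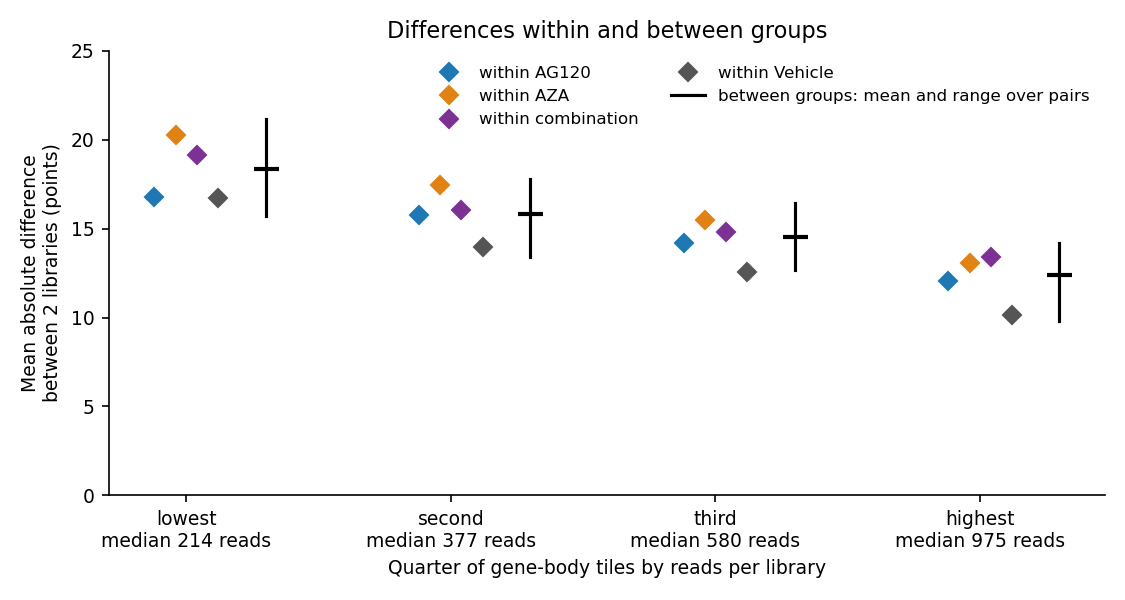
Mean absolute difference in methylation level (points) between 2 libraries over the gene-body tiles, for 4 equal classes of tiles by reads per library. Diamonds are the 2 libraries of 1 group, and the black line gives the mean and range over pairs of libraries from different groups. The values within groups fall inside or near the range between groups in each class, 15.7 to 21.1 points in the least and 9.80 to 14.2 in the most deeply read class.

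Among tiles with 100 or more reads in every library and a mean between 20 and 80%, those with the widest range went from 0 to 100% between libraries. Bcl11b, the gene of a transcription factor needed for T-cell identity, had 2 such tiles. The first (chr12:107922001-107923000) had 99.3 and 54.8% with AG120, 100 and 0% with AZA, 6.06 and 100% with the combination, and 74.9 and 100% in Vehicle. The second (chr12:107962001-107963000) had 8.42 and 49.3% with AG120, 58.4 and 62.7% with AZA, 0 and 100% with the combination, and 58 and 34.7% in Vehicle. In both tiles the 2 combination libraries stood near opposite ends of the scale. No position of the second tile was read in all 8 libraries. There combination replicate 1 had 2 positions with 20 or more reads, both at 0, and replicate 2 had 1, at 100%. In this tile 1 cytosine was at 100% in all 6 libraries that read it and another at 0 in all 6 that read it. Whether its spread comes from which cytosines were read was not tested. Ptprn (chr1:75253001-75254000), a secretory-granule protein gene, Gprc5c (chr11:114863001-114864000), an orphan receptor gene, and Tdrd9 (chr12:111990001-111991000), a germline RNA helicase gene, also spanned 100 points. No position of the Ptprn or the Tdrd9 tile was read in all 8 libraries.

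The mean level of all gene-body tiles was close in the 4 groups. It was 78.7 and 81.6% with AG120, 79.0 and 77.1% with AZA, 79.3 and 79.4% with the combination, and 79.3 and 80.9% in Vehicle. The group means were 80.2% ± 2.09, 78.04% ± 1.38, 79.4% ± 0.0414 and 80.1% ± 1.10 (SD, n = 2 each) in the same order. Against Vehicle the difference was 0.0416 points for AG120, -2.08 for AZA and -0.744 for the combination, where the pooled SD within groups was 1.37 points. Both AZA libraries lay below both Vehicle libraries, and without AZA replicate 2 the difference was -1.10. The same difference was -1.72 points in intergenic tiles and -1.20 over all tiles. The 4 libraries with AG120 averaged 79.8% ± 1.29 and the 4 without it 79.1% ± 1.57 (SD, n = 4 each). The 4 with AZA averaged 78.7% ± 1.11 and the 4 without it 80.1% ± 1.36. In both cases the ranges overlapped. Weighted by their reads, the tiles gave a difference from Vehicle of 2.70 points for AG120, -0.322 for AZA and 2.68 for the combination. The sign of the combination's difference thus turned with the weighting. For AG120 the unweighted difference was 1.52 points without AG120 replicate 1 and -1.43 without AG120 replicate 2, and its sign also turned without Vehicle replicate 1. For the combination it was 0.0358 without Vehicle replicate 2.

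**Figure D3:**
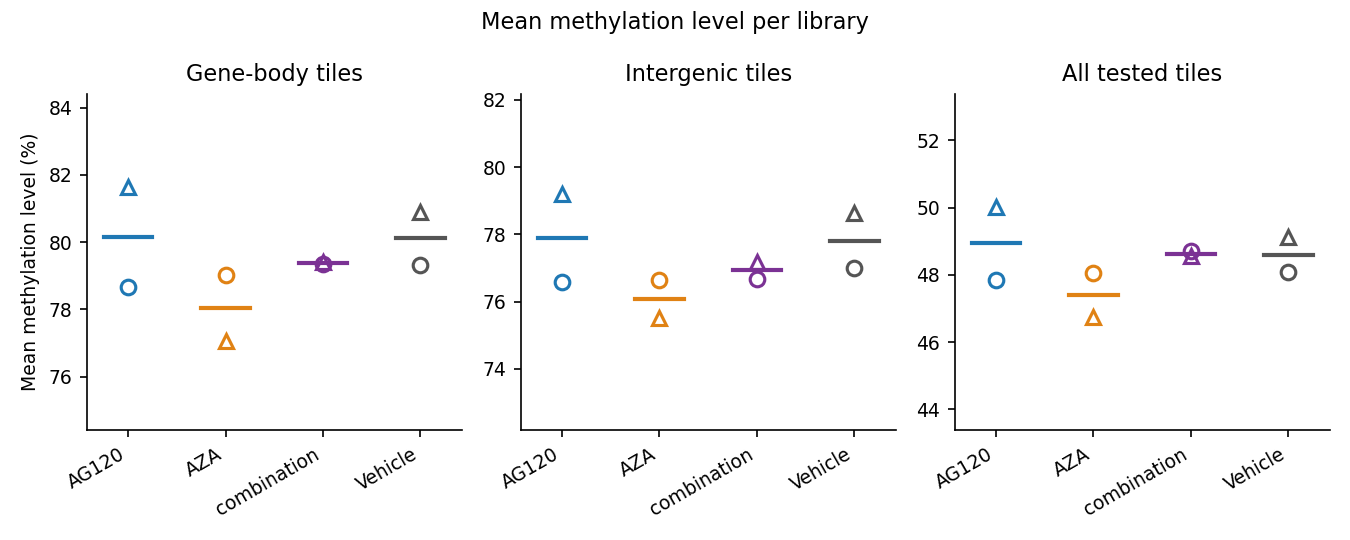
Mean methylation level (%) of each library over gene-body, intergenic and all tested tiles, with circles for replicate 1, triangles for replicate 2, a line at each group's mean (n = 2) and an axis of 10 points in every panel that does not start at 0. In the gene-body panel the AZA libraries lie at 79.0 and 77.1% and the Vehicle libraries at 79.3 and 80.9%.

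AZA replicate 2 stood apart from the other 7 libraries at the top of the scale. In this library 23.7% of the gene-body tiles were at exactly 100%, against 30.9% in AZA replicate 1 and 30.5 to 34.0% over the other 7. Its median tile was at 90.8%, against 94.9 to 96.9% in the others. In the 1018 tiles that all other libraries held at 90% or more it averaged 91.9% and 145 tiles (14.2%) were under 80%. With each of the other libraries left out in the same way, the averages were 94.2 to 96.8% and 4.33 to 10.5% of tiles were under 80%. It also had the lowest share of positions at exactly 0 or 100%, 78.5%. AZA replicate 2 was also the lowest library in the mean of intergenic tiles (75.5%) and of all tiles (46.7%). Whether the deviation of this 1 library is technical was not tested. Because the libraries are bulk samples, a lower level in every cell and a larger fraction of cells with less methylation cannot be told apart either.

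Each treated library had a larger share of tiles at 0 than either Vehicle library. Such tiles made up 4.39 and 3.45% of gene-body tiles with AG120, 3.56 and 3.38% with AZA, 4.70 and 4.26% with the combination, and 2.65 and 2.33% in Vehicle. The 3 libraries with the fewest positions read per tile, AG120 replicate 1 and both combination libraries, had the highest shares. The part of that coverage in the difference was not tested.

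**Figure D4:**
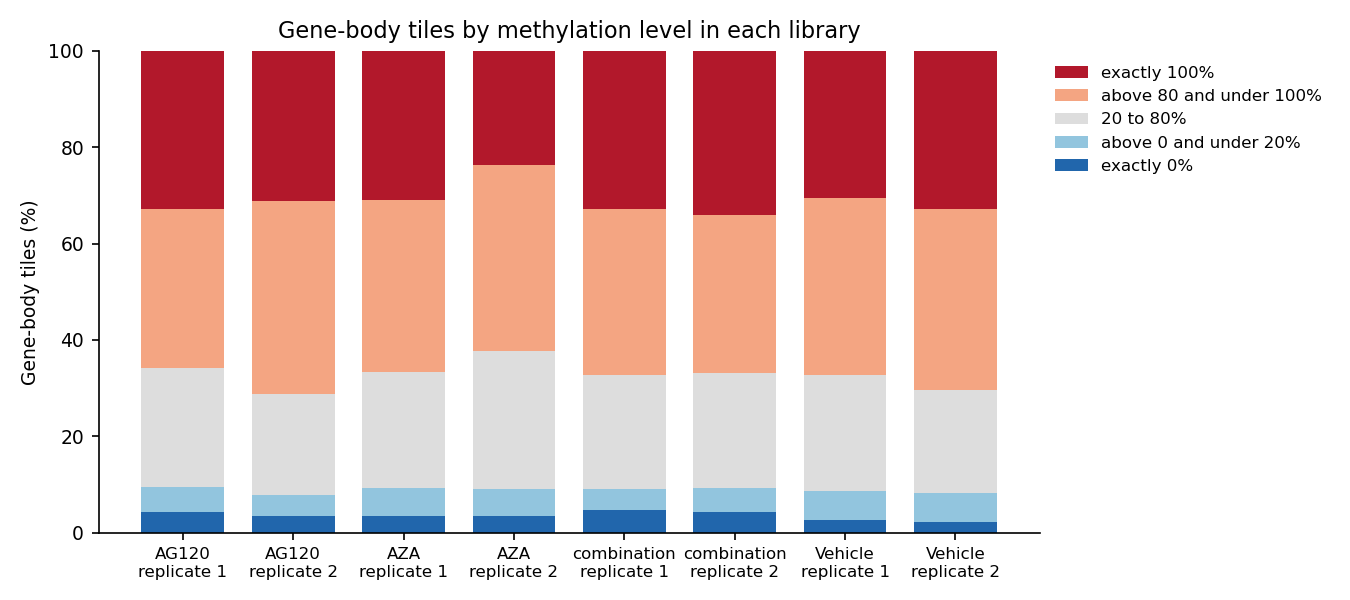
Share of the 6834 gene-body tiles (%) by methylation level in each library, with the tiles at exactly 0 and exactly 100% shown apart. The share at exactly 100% is 23.7% in AZA replicate 2 and 30.5 to 34.0% in the other libraries.

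AG120 alone was compared first. The edgeR quasi-likelihood test, adjusted over all 44190 tiles it could fit, called 0 of 6757 gene-body tiles, and 0.0% of all tiles. At an unadjusted p under 0.05 stood 180 members (2.66%), against 2.84% of all tiles. Limma called 0 members, edgeR's likelihood ratio test 2 (0.0181% of all tiles) and DESeq2 21 (0.17% of all tiles). The 2 groups did not overlap, with AG120 lower, in 935 members (13.8%; 17.3% of all tiles) and, with AG120 higher, in 922 (13.6%; 13.2%). With a difference of at least 10 points these were 628 lower (9.29%; 6.99%) and 623 higher (9.22%; 7.72%). The median difference over members was 0 and over all tiles -0.0188 points.

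The 3 gene-body tiles with the smallest p for AG120 against Vehicle were not past the threshold. Here and below, the edgeR adjusted p of a tile is that of the quasi-likelihood test. In every pairwise comparison, each tile named for a small p had a compared group with both libraries at most 0.286 points from 0 or 100%. A small p thus did not mark the largest differences. In the combination against AG120, Tgfbr3 is named at 5.02 points, while the Tdrd9 tile, at -73.8 points, is not. In Tnfaip8, a regulator of apoptosis on chromosome 18, a tile had 100 and 100% with AG120, 19.6 and 33.2% with AZA, 58.9 and 70.9% with the combination, and 58.1 and 74% in Vehicle. Both AG120 libraries stood above all others there (difference of means from Vehicle 33.97 points, edgeR adjusted p = 1), and the same tile was among the 3 of the combination against AG120 (-35.1 points, edgeR adjusted p = 1). No position of the Tnfaip8 tile was read in all 8 libraries. Clstn2, a neuronal calsyntenin gene (chr9:97960001-97961000), had 100 and 100% with AG120, 99.3 and 97.8% with AZA, 97.1 and 99.02% with the combination, and 86.7 and 63.2% in Vehicle. Only Vehicle was below 90% (edgeR adjusted p = 1). Zdhhc14, a palmitoyltransferase gene (chr17:5703001-5704000), had 35.1 and 74.9% with AG120, 98.5 and 90.3% with AZA, 75 and 84.6% with the combination, and 99.9 and 100% in Vehicle, and AG120 replicate 1 was the lowest library (edgeR adjusted p = 1).

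With AZA against Vehicle, more tiles were lower than higher, among gene-body tiles as among all tiles. The groups did not overlap, with AZA lower, in 1139 members (16.9%; 18.6% of all tiles) and, with AZA higher, in 779 (11.5%; 12.3%). With at least 10 points these were 808 lower (11.96%; 8.93%) and 529 higher (7.83%; 6.19%). The median difference was -0.426 points over members and -0.282 over all tiles, and 3640 members were below and 2870 above 0, as were 23939 and 19399 of all 44190 tiles fitted. Over all tiles the combination also had more lower than higher, with 8708 and 5668 that did not overlap with Vehicle, against 8202 and 5443 for AZA. The edgeR quasi-likelihood test called 0 of 6757 members (0.0% of all tiles), with 167 (2.47%; 2.46%) at an unadjusted p under 0.05. Limma called 0, edgeR's likelihood ratio test 0 (0.0181%) and DESeq2 18 (0.208%).

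Of the 3 tiles with the smallest p, Camk2b, the gene of a calcium and calmodulin-dependent kinase subunit (chr11:5981001-5982000), had 74.1 and 84.96% with AG120, 100 and 100% with AZA, 98.04 and 84.4% with the combination, and 87.7 and 68.4% in Vehicle. Both AZA libraries were at 100% and both Vehicle libraries lower (edgeR adjusted p = 1). Agbl1, a tubulin deglutamylase gene (chr7:76392001-76393000), was low throughout and had 1.26 and 0.0768% with AG120, 0 and 0% with AZA, 6.14 and 0.579% with the combination, and 7.04 and 8.64% in Vehicle. The AZA count of 0 allows up to 0.0514% (edgeR adjusted p = 1). Slc45a1, a sugar transporter gene (chr4:150643001-150644000), had 77.9 and 83.4% with AG120, 100 and 100% with AZA, 98.6 and 94.9% with the combination, and 89.98 and 93.04% in Vehicle (edgeR adjusted p = 1). In Slc45a1 the AZA and combination libraries lay above both Vehicle libraries and the AG120 libraries below them, but no position of this tile was read in all 8 libraries.

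The combination against Vehicle is the one the series' design text speaks of. No member passed the edgeR quasi-likelihood test, 0 of 6757 (0.0% of all tiles), and 206 (3.05%; 3.95%) stood at an unadjusted p under 0.05. Limma called 0, edgeR's likelihood ratio test 21 (0.217% of all tiles) and DESeq2 50 (0.713%). The groups did not overlap, with the combination lower, in 963 members (14.3%; 19.7% of all tiles) and, with the combination higher, in 903 (13.4%; 12.8%). With at least 10 points these were 697 lower (10.3%; 7.81%) and 615 higher (9.10%; 8.01%). The median difference was 0 over members and -0.102 points over all tiles.

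Dnah11, the gene of an axonemal dynein heavy chain, had the smallest p in this comparison. Its tile (chr12:118051001-118052000), 147 kb from the nearest gene end, had 95.8 and 100% with AG120, 89.8 and 98.8% with AZA, 100 and 100% with the combination, and 16.8 and 35.5% in Vehicle. Vehicle was low and all 6 treated libraries were above 85% (combination minus Vehicle 73.9 points, edgeR adjusted p = 1). Its reads numbered 48 to 1063 per library over 4 positions, none of them read in all 8 libraries. Ago2, the Argonaute that slices RNA (chr15:73177001-73178000), had 52.8 and 8.16% with AG120, 79.2 and 38.9% with AZA, 0 and 0% with the combination, and 65.4 and 51.95% in Vehicle. No methylated read was seen with the combination, which allows up to 0.238% (edgeR adjusted p = 1). In the Ago2 tile, too, no position was read in all 8 libraries. Fndc3b, a fibronectin type III domain gene (chr3:27695001-27696000), had 100 and 99.8% with AG120, 83.9 and 91.4% with AZA, 38.04 and 67.3% with the combination, and 100 and 100% in Vehicle. The combination libraries were the 2 lowest (edgeR adjusted p = 1).

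The combination was also compared with each drug alone. Against AZA the groups did not overlap, with the combination lower, in 808 members (11.96%; 16.1% of all tiles) and, with the combination higher, in 1108 (16.4%; 14.8%). Against AG120 these were 910 lower (13.5%; 15.2%) and 859 higher (12.7%; 12.6%). With at least 10 points they were 614 lower (9.09%; 7.18%) and 777 higher (11.5%; 9.7%) against AZA, and 669 lower (9.90%; 8.07%) and 588 higher (8.70%; 7.37%) against AG120. Both comparisons share libraries with those against Vehicle. No member was called against AZA by the edgeR quasi-likelihood test (0.0% of all tiles; 221 members at an unadjusted p under 0.05, 3.27% against 3.86%). The same held against AG120, with 0 members called (0.0%; 209 members, 3.09% against 3.4%). Limma called 0 in both, the likelihood ratio test 71 against AZA (0.726% of all tiles) and 59 against AG120 (0.665%), and DESeq2 96 (1.24%) and 85 (1.28%).

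In the comparison with AZA, the smallest p belonged to a tile of Gse1, a gene linked to histone deacetylase complexes (chr8:120270001-120271000), with 100 and 100% with the combination, 63.98 and 72.9% with AZA alone, 95.1 and 84.1% with AG120 alone, and 89.9 and 92.4% in Vehicle. AZA was lowest and the combination highest (edgeR adjusted p = 1). Msi2, an RNA-binding protein that sustains blood stem cells and leukaemia, was another of the 3. Its tile (chr11:88455001-88456000) had 0 and 0.286% with the combination, 98.2 and 100% with AZA alone, 5.41 and 95.7% with AG120 alone, and 29.4 and 87.4% in Vehicle, with 57 to 494 reads per library. Both AZA libraries were methylated and both combination libraries were not, while the libraries of AG120 and of Vehicle disagreed within the group (edgeR adjusted p = 1). In the Msi2 tile, however, no position was read in all 8 libraries. Whether its differences come from which cytosines were read was not tested. Pcsk2, a prohormone convertase gene (chr2:143684001-143685000), had 100 and 100% with the combination, 79.6 and 77.4% with AZA alone, 91.1 and 87.5% with AG120 alone, and 91.7 and 96.3% in Vehicle (edgeR adjusted p = 1). Against AG120, Fndc1 (chr17:7821001-7822000) had 99.96 and 100% with the combination, 61.4 and 64.5% with AG120 alone, 35.99 and 89.7% with AZA alone, and 68.5 and 87.7% in Vehicle (edgeR adjusted p = 1). Tgfbr3, the TGF-beta co-receptor betaglycan (chr5:107255001-107256000), had 100 and 100% with the combination, 94.2 and 95.8% with AG120 alone, 99.9 and 99.8% with AZA alone, and 99.8 and 99.96% in Vehicle. In Tgfbr3 the other 6 libraries were above 99% and AG120 was -4.88 points from Vehicle (combination against AG120, edgeR adjusted p = 1).

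Taken as factors, with 4 libraries on each side, neither drug nor their interaction gave a call in the edgeR quasi-likelihood test, 0 of 6757 members each (0.0% of all tiles each). For the average AG120 effect 180 members (2.66%; 3.4% of all tiles) stood at an unadjusted p under 0.05, for the average AZA effect 148 (2.19%; 2.65%) and for the interaction 162 (2.40%; 2.7%). Limma called 0 in each. The likelihood ratio test called 73 (0.928% of all tiles), 55 (0.493%) and 38 (0.421%), and DESeq2 117 (1.48%), 65 (0.883%) and 81 (0.905%), in the same order. All 4 libraries with AG120 lay below all 4 without it in 82 members (1.21%; 2.04% of all tiles) and above them in 1.49% of members (1.45%). All 4 libraries with AZA lay below in 78 members (1.15%; 1.51%) and above in 58 (0.858%; 0.819%). With at least 10 points the counts were 63 (0.668%) and 76 (1.12%) for AG120 and 63 (0.794%) and 43 (0.539%) for AZA, with the percent of all tiles in parentheses.

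Among such tiles with 100 or more reads in every library, those with the largest differences are named here, and the choice fixes that their groups do not overlap. With AG120 the lowest were Ccdc162 (chr10:41603001-41604000), the axon guidance gene Sema6a on chromosome 18, and Frem1, a basement membrane protein gene (chr4:82958001-82959000). Ccdc162 had 14.1 and 7.07% with AG120 alone, 35.6 and 2.88% with the combination, 96.6 and 94.2% with AZA alone, and 67.9 and 54.8% in Vehicle. None of the positions in the Ccdc162 tile was read in all 8 libraries. Sema6a had 0 and 31.8% with AG120 alone, 0 and 13.4% with the combination, 99.5 and 78.4% with AZA alone, and 43.1 and 76.2% in Vehicle. Frem1 had 6.57 and 63.9% with AG120 alone, 58.04 and 74.9% with the combination, 97.7 and 79.9% with AZA alone, and 100 and 93.7% in Vehicle, and AG120 replicate 1 lay far below the others. With AG120 the highest were Rnf217, a ubiquitin ligase gene, Olfr183, an olfactory receptor gene, and Pkhd1, the gene of fibrocystin. Rnf217 (chr10:31600001-31601000) had 99.2 and 99.2% with AG120 alone, 100 and 93.96% with the combination, 39.5 and 71.6% with AZA alone, and 59.9 and 5.94% in Vehicle. Olfr183 (chr16:58985001-58986000) had 100 and 100% with AG120 alone, 99.4 and 98.4% with the combination, 50 and 64.95% with AZA alone, and 5.88 and 69.1% in Vehicle. Both were nearly fully methylated with AG120 in either setting and spread widely without it. Pkhd1 (chr1:20478001-20479000) had 54.7 and 68.6% with AG120 alone, 39.6 and 74.6% with the combination, 13.7 and 11.9% with AZA alone, and 3.15 and 22.01% in Vehicle.

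For AZA the lowest tiles were those of the anoctamin gene Ano4, the adhesion gene Nectin2 and the myosin gene Myo15b. Ano4 (chr10:89000001-89001000) had 16.7 and 62.4% with AZA alone, 9.34 and 3.68% with the combination, 70.6 and 77.5% with AG120 alone, and 89 and 83.8% in Vehicle, and the 2 combination libraries were the lowest. Nectin2 (chr7:19732001-19733000) had 35.7 and 49.6% with AZA alone, 46.3 and 17.4% with the combination, 100 and 94.6% with AG120 alone, and 85.2 and 89.5% in Vehicle. Myo15b (chr11:115885001-115886000) had 35.9 and 65.3% with AZA alone, 4.12 and 52.03% with the combination, 98.1 and 76.9% with AG120 alone, and 67.9 and 93.8% in Vehicle. The highest were Cyp2c39, a cytochrome P450 gene, Lgr5, a receptor for R-spondins that marks intestinal stem cells, and Prag1, a pseudokinase gene. Cyp2c39 (chr19:39494001-39495000) had 24.3 and 93.3% with AZA alone, 80.2 and 80.8% with the combination, 0 and 0% with AG120 alone, and 2.20 and 10.1% in Vehicle, with no methylated read in AG120, which allows up to 0.263%. Lgr5 (chr10:115530001-115531000) had 61.3 and 61.9% with AZA alone, 0.0647 and 96.1% with the combination, 0 and 0% with AG120 alone, and 0 and 0% in Vehicle, so that the AZA side ran from near 0 to 96.1%. Prag1 (chr8:36134001-36135000) had 91.6 and 90.5% with AZA alone, 67.02 and 91.2% with the combination, 28.3 and 18.2% with AG120 alone, and 52.8 and 52.4% in Vehicle, with both single-drug groups on opposite sides of Vehicle. The edgeR adjusted p of the drug's average effect was 1 for all 12 of these tiles. Cyp2c39 and Olfr183 belong to families with close relatives, and whether reads of relatives were placed in them was not tested.

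**Figure D5:**
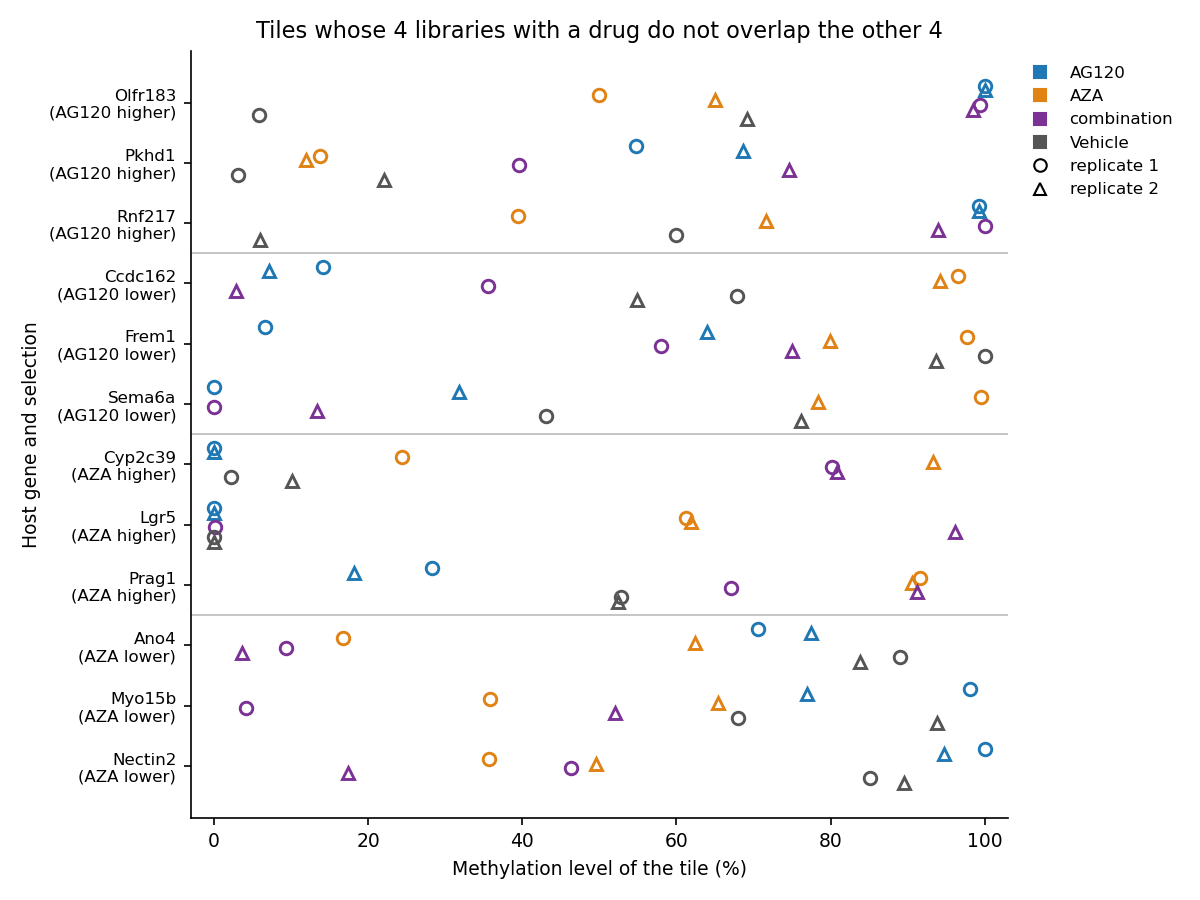
Methylation level (%) in each library of the 12 gene-body tiles with 100 or more reads in every library that show the largest difference with and without a drug and no overlap, named by their host gene and by whether the libraries with the drug are lower or higher. The values of 1 group often lie far apart, as in Lgr5, where the combination libraries are at 0.0647 and 96.1%.

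Of 66 regulators of blood cells, 33 had gene-body tiles, 84 in all with a mean of 70.2%. Of these 13 were under 20%, and over all gene-body tiles 6.29% were. This difference was not tested. The low tiles lay in Bach2, Erg (2 tiles), Flt3, Mef2c, Mef2d, Ptpn6, Rara, Runx1, Runx2, Spi1, Stat5b and Zfpm1. The transcription factor gene Erg had a tile (chr16:95458001-95459000) 348 bp from a RefSeq start that was at 0 in all 8 libraries over 255 to 1775 reads each, which allows up to 0.189% with AG120, 0.26% with AZA, 0.0943% with the combination and 0.103% in Vehicle. Flt3, a receptor kinase of progenitors, had a tile (chr5:147366001-147367000) with 0.422 and 0.231% with AG120, 0 and 0% with AZA, 0 and 0% with the combination, and 2.03 and 0.114% in Vehicle, 32.6 kb from the nearest RefSeq start. In Spi1, the gene of the myeloid factor PU.1 (chr2:91097001-91098000), the tile had 0 and 0% with AG120, 0 and 0% with AZA, 0 and 15.96% with the combination, and 0 and 0.242% in Vehicle, from as few as 22 reads. Bach2 (chr4:32249001-32250000) had 0 and 0% with AG120, 0 and 0.144% with AZA, 0 and 0.177% with the combination, and 0 and 2.87% in Vehicle. Spi1 and Bach2 were chosen after their values were seen. These 4 tiles were near 0 in every group, apart from 1 combination library in Spi1.

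The mean of the regulator list was 69.1 and 73.5% with AG120, 71.9 and 69.1% with AZA, 67.4 and 67.0% with the combination, and 70.6 and 73.4% in Vehicle. Both combination libraries were below both Vehicle libraries, at 67.2% ± 0.252 against 72.0% ± 1.99 (SD, n = 2 each). Groups did not overlap in 15 tiles with the combination lower and 10 with it higher, of the 82 fitted, beside 19.7% lower and 12.8% higher among all tiles, which is about the same split. The median difference was -1.66 points, against -0.102 over all tiles, and no member was called in any of the 3 comparisons with Vehicle. Other tiles of the same genes were higher. Erg had a tile (chr16:95415001-95416000) with 88.9 and 100% with AG120, 99.4 and 99.1% with AZA, 8.29 and 42.1% with the combination, and 71.8 and 98.8% in Vehicle. Both combination libraries were the lowest there and the tile was not called. A further Erg tile (chr16:95394001-95395000) had 100 and 81.4% with AG120, 100 and 73.5% with AZA, 58.1 and 100% with the combination, and 96.1 and 91.8% in Vehicle. Runx1, a core blood transcription factor, had a tile (chr16:92614001-92615000) with 83.3 and 78.4% with AG120, 84.04 and 66.3% with AZA, 83.3 and 75% with the combination, and 80.9 and 92.9% in Vehicle. Its next 2 tiles by reads (chr16:92747001-92748000 and chr16:92623001-92624000) were above 94% and above 87% in all libraries. Meis1, a homeobox factor of leukaemic self-renewal (chr11:19009001-19010000), had 29.01 and 0% with AG120, 0 and 94.2% with AZA, 0 and 12.2% with the combination, and 13.6 and 13.8% in Vehicle, low in 7 libraries and high in AZA replicate 2.

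Kit, whose protein the labels give as a marker of the cells, had 3 tiles. One (chr5:75628001-75629000) was at 100% in every library. The second (chr5:75607001-75608000) had 99.8 and 100% with AG120, 71.9 and 96.1% with AZA, 78.4 and 100% with the combination, and 67.8 and 88.04% in Vehicle. The third, next to it (chr5:75608001-75609000), had 8.90 and 99.7% with AG120, 82.01 and 99.4% with AZA, 83.9 and 77.2% with the combination, and 100 and 20% in Vehicle, with AG120 replicate 1 and Vehicle replicate 2 low. The Vehicle replicate 2 value rests on 25 reads. That library and both combination libraries had no position with 20 or more reads, and no position of this tile was read in all 8 libraries. The deepest regulator tile was in Prdm16, a stem cell factor (chr4:154420001-154421000), with 84.2 and 92.3% with AG120, 88.1 and 100% with AZA, 93.1 and 81.5% with the combination, and 96.6 and 99.7% in Vehicle.

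Of 26 genes that write, erase or feed DNA methylation, 7 had gene-body tiles, and these tiles were methylated. They numbered 9, with a mean of 89.0% and none under 20%. Dnmt1, the maintenance methyltransferase (chr9:20920001-20921000), had 99.8 and 82.4% with AG120, 78.95 and 99.8% with AZA, 89.7 and 100% with the combination, and 100 and 99.7% in Vehicle. Dnmt3a, a de novo methyltransferase, had 2 tiles, of which the deeper (chr12:3907001-3908000) had 71.6 and 100% with AG120, 100 and 99.4% with AZA, 70.2 and 79.9% with the combination, and 94.6 and 100% in Vehicle. The other (chr12:3903001-3904000) was above 92% in all libraries. Tet2, a 5-methylcytosine oxidase (chr3:133533001-133534000), had 75 and 100% with AG120, 100 and 90.1% with AZA, 92.1 and 100% with the combination, and 100 and 99.2% in Vehicle. Idh2, the mitochondrial isocitrate dehydrogenase, had intermediate tiles. The first (chr7:80103001-80104000) had 80 and 50% with AG120, 50.4 and 90.9% with AZA, 50.8 and 99.5% with the combination, and 60.6 and 85.1% in Vehicle. The second (chr7:80109001-80110000) had 50 and 73.03% with AG120, 69.4 and 99.3% with AZA, 66.1 and 9.26% with the combination, and 44.9 and 99.8% in Vehicle. The 2 libraries of a group differed widely in both Idh2 tiles. The list averaged 87.2% ± 1.60 with AG120, 89.8% ± 8.29 with AZA, 85.7% ± 2.64 with the combination and 93.1% ± 6.96 in Vehicle (SD, n = 2 each), and none of its tiles was called.

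The other lists ranged from 69.5 to 90.2%, over those of their genes that had gene-body tiles. Chromatin modifiers averaged 86.6% (44 tiles, 3 low), among them Kmt2d, a histone H3 lysine methyltransferase (chr15:98867001-98868000), with 0 and 41.1% with AG120, 6.05 and 1.02% with AZA, 0 and 5.60% with the combination, and 5.59 and 0.991% in Vehicle. The Kmt2d tile was low in 7 libraries and higher in AG120 replicate 2. RAS and MAPK genes averaged 75.7% (61 tiles, 8 low), broadly expressed genes 76.7% (79 tiles, 10 low) and neuronal and synaptic genes 75.9% (323 tiles, 16 low). The deepest neuronal tile, in Fgf14 (chr14:124211001-124212000), had 79.99 and 86.9% with AG120, 47.2 and 77.8% with AZA, 85.4 and 51.1% with the combination, and 84.3 and 78.7% in Vehicle. Imprinted genes averaged 69.5% over 8 tiles, of which that of the actin nucleator gene Cobl (chr11:12335001-12336000) had 74.96 and 87.01% with AG120, 93.1 and 99.03% with AZA, 90.9 and 67.2% with the combination, and 80.6 and 54.7% in Vehicle. No member of any list was called in the comparisons with Vehicle by the edgeR quasi-likelihood test (the background of that call was 0.0% of all tiles).

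Genes of other cell types that a progenitor gate could hold were methylated in every group where they had gene-body tiles, as gene-body tiles were in general. All gene-body tiles averaged 79.4%, with 69.6% of them above 80% and 6.29% under 20%. Lymphoid genes averaged 80.2% over 29 tiles in 8 of 28 genes, and 17 of these tiles were above 80%. Erythroid and megakaryocytic genes averaged 90.2% over 13 tiles in 5 of 22 genes (12 tiles above 80%). Stromal and endothelial genes averaged 85.2% over 32 tiles in 16 of 25 genes (24 tiles above 80%). None of the tiles in these lists was under 20%. Ebf1, a B-cell factor (chr11:44777001-44778000), had 96.9 and 94.1% with AG120, 99.7 and 90.99% with AZA, 99.5 and 83.8% with the combination, and 63.6 and 97.7% in Vehicle. Ank1, the erythroid ankyrin gene (chr8:23123001-23124000), had 100 and 96.4% with AG120, 100 and 86.5% with AZA, 75.5 and 89.02% with the combination, and 99.5 and 92.9% in Vehicle. Pdgfrb, a receptor of stromal cells on chromosome 18, was at 85.4% or more in all libraries. Gene-body methylation of a marker does not measure its expression, so these levels say nothing of the number of such cells.

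The genes with the most tiles were Camta1, a calmodulin-binding transcription activator, with 24, Gse1 and the tumour suppressor gene Wwox with 19 each, Cdh13, a cadherin gene, with 18, and Maml3, a Notch coactivator gene, and Zfhx3, a homeobox gene, with 17 each. Over its tiles Camta1 averaged 69.6 and 77.9% with AG120, 73.3 and 74.7% with AZA, 69.5 and 64.2% with the combination, and 68.2 and 64.8% in Vehicle. Its tiles ran from 2.34 to 99.8%. Gse1 averaged 65.2 and 67.7%, 61.2 and 64.5%, 68.1 and 67.4%, and 67.6 and 71.6% in the same order of groups, and 4 of its tiles were low. In Wwox, where no tile was low, the averages were 74.8 and 88.8%, 87.0 and 85.6%, 91.1 and 88.7%, and 88.1 and 88.3%. The directions differed between these genes. Without overlap, AZA and AG120 were above Vehicle in Camta1. AZA was below Vehicle in Gse1, Wwox and Cdh13, where it had 84.6 and 76.5% against 85.2 and 88.8%. The combination was above Vehicle in Wwox and Maml3, in the latter at 89.4 and 87.3% against 78.9 and 80.7%. In Zfhx3 every treated group overlapped Vehicle. Such separation is common: over all single tiles AZA was below Vehicle without overlap in 18.6% and above it in 12.3%. Its share over gene means was not counted, so no drug effect is read from these directions. Neighbouring tiles of 1 gene share their libraries and were not treated as replicates.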

How the data were processed

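Reduced representation bisulfite sequencing was done on 8 libraries, 2 in each of 4 groups. The authors deposited counts of methylated and unmethylated reads per CpG cytosine and library, with the strands apart, 4006353 positions in all. The submitters' processing notes name the build mm10, Bismark 0.22.3 and Trim Galore 0.4.4 for bisulfite reads, and also SAMtools 1.4.1, bcl2fastq 2.17.1.14, edgeR 3.32 and R 4.0.2. Whether reads were deduplicated is not given in the sources used here. Of the per-sample columns, 0 were left unused.

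Reads were added up over the positions of each 1000 bp tile, and a tile's level is its methylated reads in percent of its reads. A sequencing read thus counts once at each position it covers. Gene positions and the sequences come from RefSeq on GRCm38.p6, and 99.3% of 457279 covered positions inside its promoter windows stood on a CpG letter. Exon, intron and CpG island annotation was not used here. The members and gene lists were chosen with earlier results of these data known.

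The main test was edgeR 4.0.16 (R 4.3.3), quasi-likelihood, with a term per library and methylation terms per group, on the 44190 tiles that are neither fully methylated nor fully unmethylated in every library, with Benjamini-Hochberg adjustment at 0.05. Its code was run on simulated counts, with a spread between libraries that was fixed beforehand and not fitted to these data. That run therefore does not measure how large a difference the test could find here. Alternatives were edgeR's likelihood ratio test, limma 3.58.1 on log2 of (methylated + 2) over (unmethylated + 2), DESeq2 1.42.0, a replicate block, other read minimums and tile sets, and each library left out. Tables were handled in Python 3.11.15 with pandas 2.3.3 and numpy 2.4.6. Limits for counts of 0 are 3 reads over a group's total and cover counting error only. They take counts at different positions as independent, which they are not where 1 sequencing read covers several.

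Named tiles follow a rule. They are the 3 with the smallest p in each pairwise comparison, as none passed the threshold, the most deeply read tile of each list, and every tile, at most 3, of leukaemia and methylation genes. Among tiles with 100 or more reads in every library they are also the 5 with the widest and narrowest range at intermediate levels, the 5 lowest, and the 3 largest differences each way per drug without overlap. The genes with the most tiles are named too. Tiles chosen otherwise are said to be. Of the tiles the rule names, 1 is not reported here.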

Additional observations from a re-analysis of the deposited data

Results flagged for a closer look

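In 8 of 26 tiles named for a drug comparison, both libraries of a drug lay on one side of its control without the other drug and on the opposite side with it. The edgeR quasi-likelihood test of the interaction gave an adjusted p of 1 for each, so none of these differences passed the threshold. For AZA, with AG120 and without it, the Clstn2 tile differed by -1.96 and 23.6 points, the Zdhhc14 tile by 24.8 and -5.58, the Gse1 tile by 10.4 and -22.7, the Pcsk2 tile by 10.7 and -15.5 and the Msi2 tile by -50.4 and 40.8. For AG120, with AZA and without it, the Agbl1 tile differed by 3.36 and -7.17 points, the Pcsk2 tile by 21.5 and -4.70, the Fndc1 tile by 37.1 and -15.1 and the Tgfbr3 tile by 0.119 and -4.88. Each of these tiles had been named for a small p of a comparison that enters the interaction, so the pattern is not independent of that choice. Tiles named for lying on 1 side in all libraries with a drug could not show it for that drug. The share of all tiles with this pattern was not counted. In a single pairwise comparison the groups did not overlap, with the first lower, in 15.2 to 19.7% of all tiles. With the first higher they did not overlap in 12.3 to 14.8%.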

How the results depend on the processing

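The count of gene-body tiles called was 0 in all 8 comparisons with the edgeR quasi-likelihood test under every read minimum, tile set and left-out library that was run, with limma at both pseudocounts and with the replicate block. Same-numbered libraries of different groups did not deviate together (r of their deviations from the group means -0.00612 to 0.0265 over 6 pairs of groups). The other tests gave more calls. For AG120, AZA and the combination against Vehicle, edgeR's likelihood ratio test called 2, 0 and 21 and DESeq2 21, 18 and 50. For the combination against AZA and against AG120 they called 71 and 59, and 96 and 85. For the average AG120 effect, the average AZA effect and the interaction they called 73, 55 and 38, and 117, 65 and 81. The cause of these added calls was not tested. Tiles named for a drug comparison had an adjusted p under 0.05 in 35 results of the alternatives, counted per tile, comparison and setting. Only the likelihood ratio test and DESeq2 gave calls among the alternatives. The gene-body level stood above the intergenic level in all alternatives. The gap was 1.56 points over positions with 10 or more reads in every library (548 gene-body tiles), 3.25 with 3 to 10 positions and 4.63 as a median. It was 3.51 with tiles weighted by their reads. In tiles with 3 or more positions read in all libraries, an alternative chosen after seeing the data, it was 0.954. As medians over tiles, the combination minus Vehicle was 0.911 points and with minus without AG120 2.171. With tiles weighted by their reads, AG120 minus Vehicle was 2.70, AZA minus Vehicle -0.322, the combination minus Vehicle 2.68 and with minus without AG120 2.85. Leaving out each library, AG120 minus Vehicle ran from -1.43 to 1.52, AZA minus Vehicle from -3.05 to -1.10, the combination minus Vehicle from -1.52 to 0.0358, with minus without AG120 from 0.0145 to 1.29, with minus without AZA from -1.92 to -0.883, and gene-body minus intergenic from 2.172 to 2.33. Where an arm is left with 1 library, that library is assumed to vary like the other groups. In single tiles the median SD between libraries was 12.8 points, and each group had 2 libraries. Binomial sampling gives 1.77 with all counts of a tile taken as independent, so the true sampling error can be larger.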

Other observations

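Tiles under 20% were spread over 383 genes, and 5 genes held 3 or more of them. These genes were picked after their values were seen. Gse1 held 4 of 19 tiles, Zfhx3 4 of 17, Pxn, the gene of the focal adhesion protein paxillin, 4 of 8, Cmip 3 of 8 and Unc5b, a netrin receptor gene, 3 of 4. By chromosome the mean level over the 8 libraries lay between 77.7% on chromosome 5 (560 tiles) and 83.7% on chromosome 12 (277 tiles). In intermediate tiles, with a mean between 20 and 80%, the range over libraries exceeded 50 points in 1269 of 1650.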
